A study of Homo sapiens with 2 samples.

Results

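The human HOX cluster genes were described in HEK293 cells with and without the ER stress kinase PERK. The genes were taken as every row whose name is HOXA, HOXB, HOXC or HOXD followed only by a number. This gave 39 genes of the 25277 rows listed in each of the 2 gene tables, with 11 genes in HOXA, 10 in HOXB, 9 in HOXC and 9 in HOXD.

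HOX genes encode homeodomain transcription factors that give cells of the trunk and limbs their position along the head-to-tail axis. They lie in 4 clusters, and genes at the same place in different clusters form a paralog group, numbered from the anterior end. Genes at the low-numbered end of a cluster are used early and far forward in the embryo, and genes at the high-numbered end late and toward the tail. Cultured cells usually keep the pattern of active and silent HOX genes of the place they came from, held by Polycomb repression and Trithorax activity, and this pattern is called the HOX code. HEK293 is an adenovirus-transformed line from human embryonic kidney.

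The study compared RNA from wild-type HEK293 cells (WT) with HEK293 cells in which PERK, encoded by EIF2AK3, was disrupted with CRISPR/Cas9 (PERK-KO). Both lines were at passage 15-20 and both were kept for 12 h in OXPHOS medium, a glucose-free medium that makes cells depend on respiration, so no library represents cells in glucose. Each line gave 1 poly(A) RNA library. Per the study's methods, edited cells were isolated by single-cell seeding or by drug selection. The number of clones behind the knockout library is not stated, and a difference between clones and a difference due to the genotype cannot be told apart. With 1 library a line there is no replicate check, no test across libraries was possible, and every comparison below is between these 2 libraries.

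Levels are in FPKM, fragments scaled by transcript length and by the mapped total of the library, printed with the lower and upper confidence limits of the same table. The limits lie 2 SD from the value and cover counting error within 1 library only. A gene was called on at an FPKM of at least 1, and expressed when it was on in at least 1 line, which holds for 14594 rows. EIF2AK3 was at 5.61 FPKM in WT and 3.89 FPKM in PERK-KO, so the transcript was still present at a lower level, and the value does not check the protein. Total fragments are not listed. In 1282 genes whose fragments came out whole in both lines, the worth of 1 fragment placed the depth of the PERK-KO library at 87.6% of the WT library, while other low values were fractions of a fragment. The fragments behind an expressed HOX gene, worked out from its confidence limits, had a median of 220 in WT (range 18.1 to 869) and 247 in PERK-KO (range 22.8 to 1038).

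The labelled tissue was checked against markers. Of 13 kidney-lineage and epithelial markers 8 were expressed. Nephric and metanephric factors among them included LHX1 at 4.65 FPKM in WT and 2.88 in PERK-KO, WT1 at 6.75 and 6.67, SIX2 at 6.47 and 7.66, EMX2 at 5.29 and 4.76, and EYA1 at 1.61 and 3.14. PAX8, a defining renal epithelial factor, was at 0.072 and 0.0329 FPKM, PAX2 at 0.981 and 0.748, CDH1 at 0.76 and 0.684, and EPCAM was listed at 0 in WT and at 0.112 in PERK-KO. The keratins KRT8, KRT18 and KRT19 were abundant, at 640, 238 and 85.3 FPKM in WT and 437, 202 and 51.2 in PERK-KO, lower with limits apart in all 3. Of 7 neuronal markers 4 were expressed, and they differed in direction. NEFL, the most abundant, was at 44.9 FPKM in WT and 33.4 in PERK-KO, lower with limits apart, and TUBB3 was at 29.9 and 28.0. NEFM was at 0.662 and 5.21 and INA at 0.458 and 4.13, and both were on in PERK-KO only. ELAVL4 was listed at 0 in both lines. Of 5 fibroblast markers only COL1A1 was expressed, and COL1A2 was listed at 0 in both lines. The summed FPKM of the lists in WT and PERK-KO was 991 and 717 for kidney and epithelium, 76 and 71 for neurons, and 5.57 and 5.26 for fibroblasts. The 3 keratins, general epithelial genes, made up nearly all of the first sum and of its difference. The highest other member of that list was WT1 at 6.75 FPKM in WT and SIX2 at 7.66 in PERK-KO, so the sum does not measure kidney identity. Whether the part of the culture that these markers stand for bears on the HOX levels was not tested. In bulk RNA, fewer cells using a gene and less RNA of it per cell cannot be told apart.

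The first question was whether the set of active HOX genes was the same in both lines. In WT 34 HOX genes were on and in PERK-KO 33 were, and 33 of the 39 were on in both. Over all rows 54.6% were on in both lines. The one gene that crossed the level was HOXB5, at 1.41 FPKM (0.983 to 1.83) in WT and 0.85 (0.494 to 1.21) in PERK-KO, and its limits overlap. It entered the expressed set through WT alone. The HOXB5 row overlaps that of HOXB-AS3, an antisense transcript at 11.8 FPKM in WT and 8.02 in PERK-KO. The counting is not stated to use strand. No HOX gene was on in PERK-KO only. Among all expressed rows, 5.5% were on in 1 line only.

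Of the 5 HOX genes off in both lines 4 are described here. HOXD1 was at 0.196 FPKM in WT and 0.415 in PERK-KO, and HOXB1 was listed at 0 in both. HOXC12 and HOXD12 were listed at 0 in WT, and each had 1 fragment in PERK-KO, giving 0.0874 and 0.0926 FPKM. A count of 3 fragments in WT would have given 0.230 FPKM for HOXC12 and 0.243 for HOXD12. At this depth a listing of 0 therefore does not exclude WT levels up to about those values. HOXC12 and HOXD12 are the only genes of paralog group 12, and both lie inside the active end of their clusters. HOXD12 sits between HOXD13, at 12.4 and 27 FPKM, and HOXD11, at 20.1 and 26.0 FPKM. HOXC12 lies between HOXC13, at 10.2 and 7.86 FPKM, and HOXC11, at 1.08 and 2.22 FPKM. The pattern in both lines was therefore of groups 2 to 11 and 13 being on in every gene measured, with the exception of HOXB5 in PERK-KO.

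**Figure D1:**
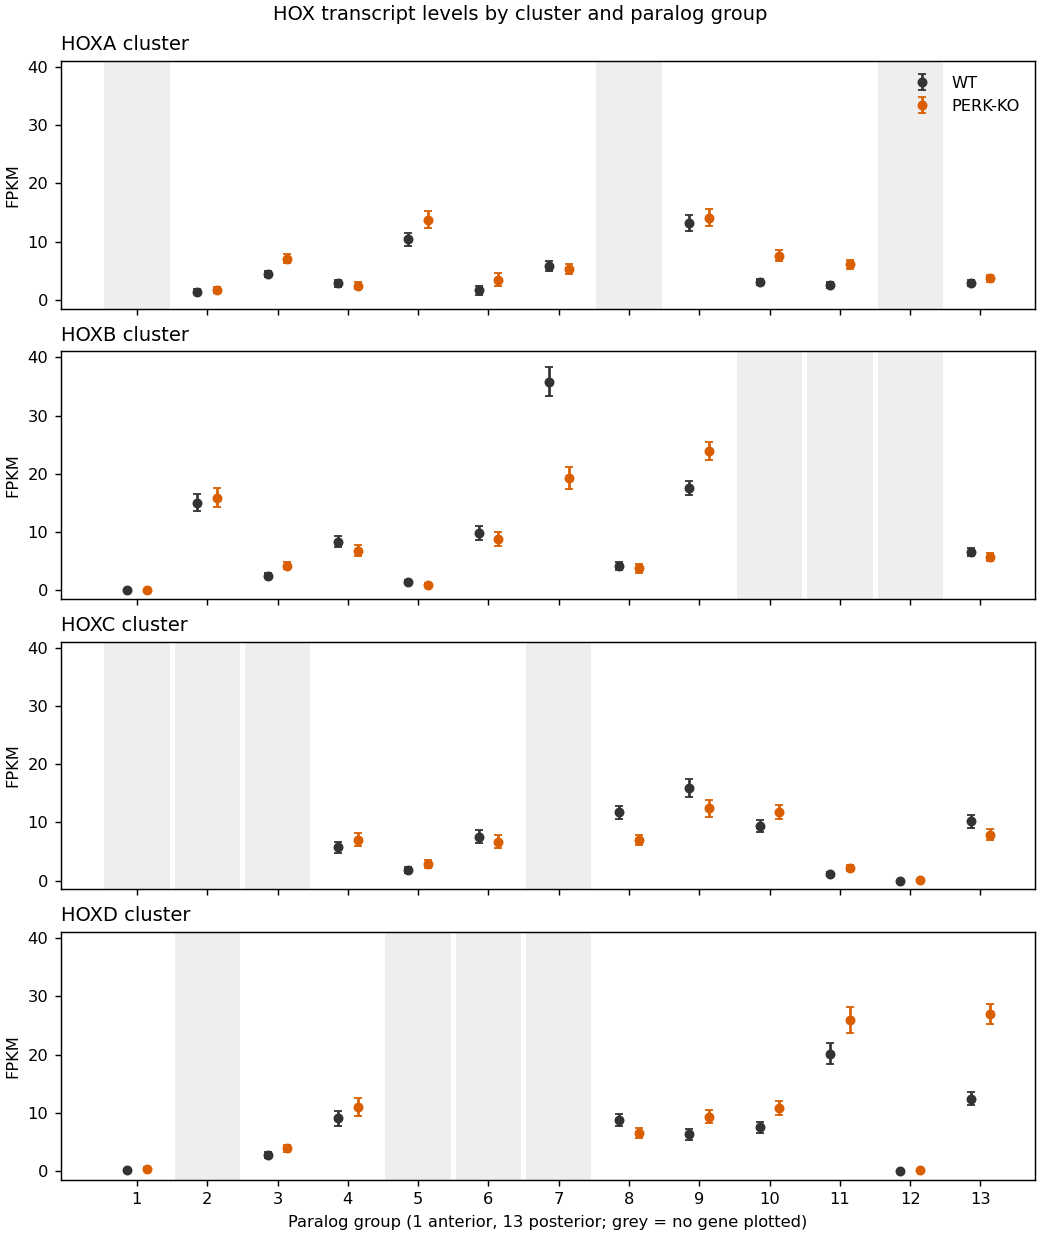
FPKM of HOX genes in WT and PERK-KO, arranged by cluster and by paralog group, with bars for the deposited confidence limits. HOXB1, HOXD1, HOXC12 and HOXD12 are below 1 FPKM in both lines, and the highest values are HOXB7 in WT (35.8) and HOXD13 in PERK-KO (27).

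The promoters of active and silent neighbours were set side by side. RefSeq on GRCh38.p14 gave a promoter for 20 of the 39 symbols, as 27 promoter entries, with the same promoter entered for HOXC4 and for HOXC5. The promoters of 6 genes are shown as the 250 bases before the start, with CpG dinucleotides in capitals, since CpG-rich DNA is what Polycomb and Trithorax complexes are known to bind at these clusters. HOXD13 (chr2:176092471-176092720, plus strand), HOXD11 (chr2:176107030-176107279, plus) and HOXA11 (chr7:27185233-27185482, minus) belong to genes on in both lines. HOXD12 (chr2:176099545-176099794, plus), HOXD1 (chr2:176188418-176188667, plus) and HOXB1 (chr17:48531012-48531261, minus) belong to genes off in both. These coordinates are on GRCh38.p14 and do not match the hg19 positions used elsewhere in this text.
HOXD13: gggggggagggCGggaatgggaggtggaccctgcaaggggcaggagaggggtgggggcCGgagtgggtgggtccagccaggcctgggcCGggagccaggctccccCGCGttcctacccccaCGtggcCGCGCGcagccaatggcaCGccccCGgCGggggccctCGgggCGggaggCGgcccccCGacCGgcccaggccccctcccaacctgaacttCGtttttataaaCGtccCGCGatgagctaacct
HOXD11: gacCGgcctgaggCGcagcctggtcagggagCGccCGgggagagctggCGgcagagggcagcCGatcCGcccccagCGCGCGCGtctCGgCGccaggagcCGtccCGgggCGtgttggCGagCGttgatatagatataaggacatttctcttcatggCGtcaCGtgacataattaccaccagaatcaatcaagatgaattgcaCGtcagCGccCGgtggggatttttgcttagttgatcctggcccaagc
HOXA11: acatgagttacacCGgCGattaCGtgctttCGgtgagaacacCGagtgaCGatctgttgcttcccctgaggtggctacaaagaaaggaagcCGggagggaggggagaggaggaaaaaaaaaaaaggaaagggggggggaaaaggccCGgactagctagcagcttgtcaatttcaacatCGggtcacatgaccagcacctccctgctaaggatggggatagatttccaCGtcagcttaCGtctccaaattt
HOXD12: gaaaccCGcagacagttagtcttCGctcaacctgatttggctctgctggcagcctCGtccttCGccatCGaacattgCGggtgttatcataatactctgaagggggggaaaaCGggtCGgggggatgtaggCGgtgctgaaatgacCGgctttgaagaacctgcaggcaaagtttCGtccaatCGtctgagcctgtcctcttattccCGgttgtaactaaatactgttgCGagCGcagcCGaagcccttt
HOXD1: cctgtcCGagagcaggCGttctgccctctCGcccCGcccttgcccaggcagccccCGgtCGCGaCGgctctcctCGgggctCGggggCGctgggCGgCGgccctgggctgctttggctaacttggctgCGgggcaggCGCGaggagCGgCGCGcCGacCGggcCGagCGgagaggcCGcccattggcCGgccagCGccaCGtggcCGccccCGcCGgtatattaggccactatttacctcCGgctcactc
HOXB1: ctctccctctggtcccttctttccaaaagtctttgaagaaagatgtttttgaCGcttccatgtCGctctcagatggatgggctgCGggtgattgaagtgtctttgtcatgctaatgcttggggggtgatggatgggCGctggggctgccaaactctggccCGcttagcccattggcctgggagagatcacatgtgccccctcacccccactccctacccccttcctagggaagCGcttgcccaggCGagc

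The count of CpG in the 250 bases was 21 for HOXD13, 23 for HOXD11 and 11 for HOXA11, against 16 for HOXD12, 31 for HOXD1 and 7 for HOXB1. The silent and active promoters therefore overlap in CpG content, and the highest count of the 6 was that of the silent HOXD1. With the most CpG-rich start site of each gene, the 20 HOX genes had a median of 22 CpG, and all 27305 genes with a promoter had a median of 12. The letters CCAAT, on either strand, were found in 17 of the 20 HOX genes and in 37% of all genes. HOXC4 and HOXC5 both count among the 17 through their shared promoter. All 3 silent HOX genes with a promoter held them. The letters TATAAA, on either strand, were in 4 of the 20 HOX genes (HOXA3, HOXA9, HOXA10 and HOXD13) and in 13.1% of all genes. Per promoter entry, TTTATG was in 3 of 27 HOX promoters and in 9.64% of all 35116 promoters, and TGATTNAT in 2 of 27 and in 2.48%, on either strand.

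The second question was whether the order of levels was the same. Spearman's rho between the lines was 0.933 over the 39 HOX genes and 0.899 over the 34 expressed ones. It was 0.962 over all rows and 0.936 over the 10746 expressed rows whose FPKM lie in the range of the expressed HOX genes. These are descriptions across genes within 2 libraries, and genes are not replicates. The 5 highest genes in WT were HOXB7, HOXD11, HOXB9, HOXC9 and HOXB2. In PERK-KO they were HOXD13, HOXD11, HOXB9, HOXB7 and HOXB2, so 4 were shared, and of the 10 highest 8 were shared. HOXD13 moved from rank 7 to rank 1, HOXA10 from 24 to 15, and HOXC8 from 8 to 18.

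**Figure D2:**
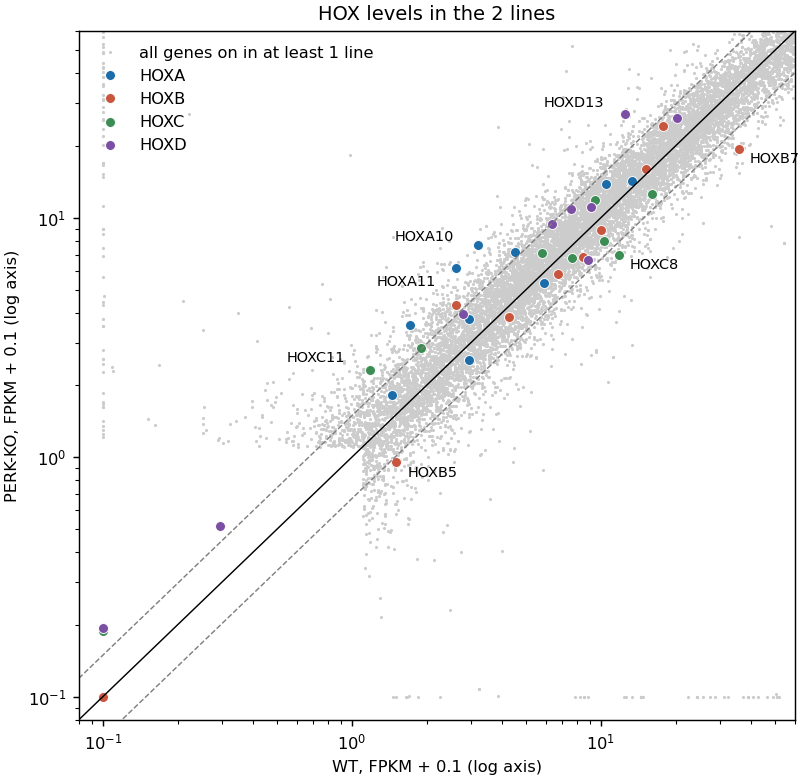
FPKM in PERK-KO (y axis) against WT (x axis) for HOX genes, both on log scales, coloured by cluster. Most genes lie near the line of equal values, HOXD13, HOXA10 and HOXA11 lie above it, and HOXB7 and HOXC8 lie below it.

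The third question was how levels differed between the lines. A fold threshold close to 1.5, the size used in the study, marks a gene as higher or lower here. Past this threshold, 8 of the 34 expressed HOX genes (23.5%) were higher in PERK-KO, against 10.5% of all expressed rows, and 3 (8.82%) were lower, against 7.83%. When the confidence limits were also required not to overlap, 6 were higher (17.6%, against 8.21% of all) and 2 were lower (5.88%, against 5.63%). At any fold, limits did not overlap for 13 HOX genes with the higher value in PERK-KO and 5 with the higher value in WT, against 26.1% and 18.7% of all expressed rows. Past the threshold, the share of HOX genes with the lower value in PERK-KO thus stood near that of all genes, and the share with the higher value was larger than that of all genes. The median log2 fold change was 0.32 for HOX genes and 0.04 for all expressed rows. Fold changes in these libraries varied with transcript length. The median HOX transcript is 1989 bases long and that of all expressed rows 3205. After subtracting, for each gene, the median log2 fold change of the genes nearest to it in length, the HOX median was 0.41.

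**Figure D3:**
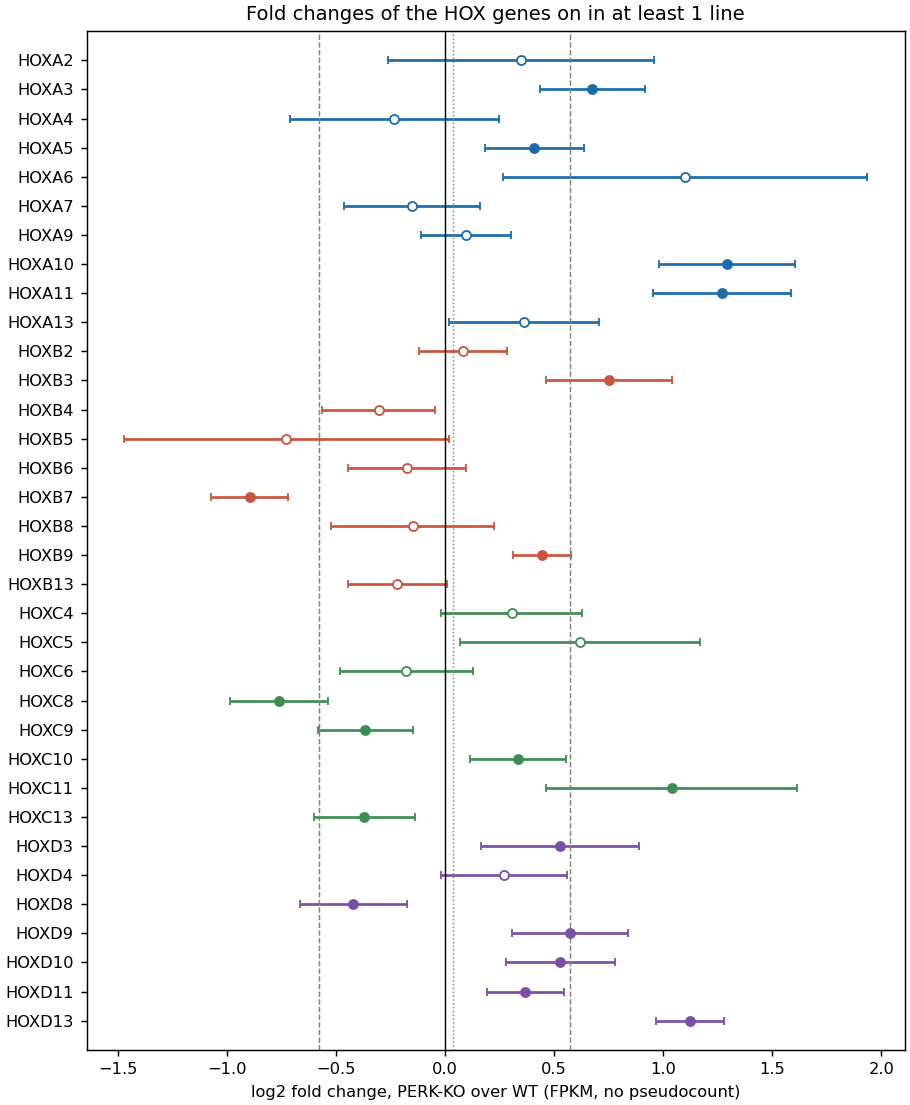
Log2 fold change (PERK-KO over WT) of the 34 expressed HOX genes by cluster and paralog group, with bars of 2 SD from the counting errors of both libraries combined. Filled points have confidence limits that do not overlap, dashed lines mark the fold threshold, and the dotted line is the median of all expressed rows (0.04). HOXA10 and HOXA11 are the highest points and HOXB7 the lowest.

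In the HOXA cluster (hg19, chromosome 7, read from the minus strand) 10 of 11 genes were expressed, and 4 (40%) were past the threshold, all higher in PERK-KO. Over all expressed rows 10.5% were higher and 7.83% lower past it. With limits apart as well, 3 of the HOXA genes were higher (30%, against 8.21% of all). The anterior genes HOXA2, a gene of hindbrain segment identity, and HOXA3, a gene of pharyngeal and thymus development, were at 1.35 (0.936 to 1.77) and 4.42 (3.86 to 4.99) FPKM in WT. In PERK-KO they were at 1.72 (1.22 to 2.22) and 7.06 (6.30 to 7.82). Limits overlap for HOXA2 and do not for HOXA3, which was 1.60-fold higher.

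Of the central HOXA genes, HOXA4 was at 2.86 (2.24 to 3.47) FPKM in WT and 2.43 (1.82 to 3.05) in PERK-KO. HOXA5, a gene of lung and thoracic patterning, was at 10.4 (9.16 to 11.6) and 13.8 (12.3 to 15.2). HOXA6 was at 1.61 (0.853 to 2.37) and 3.46 (2.29 to 4.62), on 18.1 and 35.2 fragments. HOXA7 was at 5.81 (4.96 to 6.65) and 5.23 (4.38 to 6.08). Only HOXA5 among these 4 had limits that do not overlap, and the 2.15-fold value of HOXA6 rests on the fewest fragments of any expressed HOX gene in WT.

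The posterior HOXA genes held the largest fold values of the family. HOXA10 (chr7:27210210-27219880), needed for lumbar, limb and uterine development, was at 3.10 (2.55 to 3.65) FPKM in WT and 7.60 (6.68 to 8.53) in PERK-KO. The log2 fold change of HOXA10 was 1.29 (0.98 to 1.61). HOXA11 (chr7:27220776-27224835), which acts in kidney, forearm and uterus, was at 2.53 (2.07 to 2.98) and 6.09 (5.33 to 6.85). Its log2 fold change was 1.27 (0.95 to 1.58). The folds were 2.45 for HOXA10 and 2.41 for HOXA11, with limits far apart. HOXA9, a blood progenitor and leukemia gene, was at 13.2 (11.9 to 14.5) and 14.1 (12.7 to 15.6), and HOXA13, a gene of the hand and hindgut, at 2.85 (2.35 to 3.34) and 3.67 (3.07 to 4.27). The limits of these flanking genes overlap. The row of HOXA10 overlaps those of HOXA-AS4 and of the read-through transcript HOXA10-HOXA9, so its fragments may be split between rows, although the read-through row was near 0 in both lines.

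In the HOXB cluster (chr17:46606807-46806111, minus strand) 9 of 10 genes were expressed. Past the threshold 1 (11.1%) was higher and 2 (22.2%) were lower, against 10.5% and 7.83% of all expressed rows. HOXB2, a hindbrain gene, was at 15.0 (13.5 to 16.5) FPKM in WT and 15.9 (14.3 to 17.5) in PERK-KO. HOXB3, the next gene along the cluster, was at 2.52 (2.13 to 2.90) and 4.24 (3.70 to 4.78), 1.68-fold higher with limits apart. All 5 central genes, HOXB4 to HOXB8, had the lower value in PERK-KO.

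HOXB7 (chr17:46684595-46688383) was the most abundant HOX transcript of WT, at 35.8 (33.3 to 38.3) FPKM, and was at 19.2 (17.3 to 21.2) in PERK-KO. It was 1.86-fold lower, a log2 fold change of -0.89 (-1.07 to -0.72), or -0.70 after subtraction of the running median over length. Around it, HOXB4, a blood stem cell gene, was at 8.36 (7.40 to 9.32) and 6.77 (5.84 to 7.70). HOXB6 was at 9.86 (8.63 to 11.1) and 8.75 (7.52 to 9.97), and HOXB8 at 4.16 (3.44 to 4.87) and 3.75 (3.02 to 4.48). The limits of HOXB4, HOXB6 and HOXB8 overlap, as do those of HOXB5, so HOXB7 alone among the central HOXB genes had limits apart. By the combined counting error of both libraries, the log2 fold change of HOXB4 was -0.30 (-0.56 to -0.05), which also lies below 0. In the same way HOXA6 (0.27 to 1.94), HOXA13 (0.02 to 0.71) and HOXC5 (0.07 to 1.17) lay above 0 though their limits overlap. At the posterior end HOXB9 was at 17.6 (16.4 to 18.8) and 23.9 (22.4 to 25.4), a 1.36-fold higher value with limits apart. HOXB13, a prostate and hindgut gene lying far from the rest of the cluster, was at 6.64 (5.96 to 7.33) and 5.71 (5.03 to 6.39), with overlapping limits.

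In the HOXC cluster (chr12:54332576-54449814, plus strand) 8 of 9 genes were expressed. Past the threshold 2 (25%) were higher and 1 (12.5%) was lower, against 10.5% and 7.83% of all expressed rows. HOXC4, HOXC5 and HOXC6 share a start site in the tables, so the split of fragments among them is uncertain. HOXC4 was at 5.69 (4.77 to 6.60) FPKM in WT and 7.03 (5.94 to 8.12) in PERK-KO. HOXC5 was at 1.80 (1.28 to 2.32) and 2.76 (2.08 to 3.45), and HOXC6 at 7.57 (6.50 to 8.64) and 6.69 (5.64 to 7.75). Limits overlap for all 3 of these, also for HOXC5, whose value was 1.54-fold higher.

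HOXC8 (chr12:54402890-54406545), a thoracic patterning gene, was at 11.7 (10.7 to 12.8) FPKM in WT and 6.91 (6.03 to 7.79) in PERK-KO, with limits far apart and a log2 fold change of -0.76 (-0.99 to -0.54). HOXC9 was at 16.0 (14.4 to 17.5) and 12.4 (11.0 to 13.9), and HOXC13, a hair and nail gene, at 10.2 (9.10 to 11.2) and 7.86 (6.89 to 8.83). Both were lower in PERK-KO with limits apart, by less than the fold threshold. In between, HOXC10 was at 9.33 (8.29 to 10.4) and 11.8 (10.5 to 13), and HOXC11 at 1.08 (0.736 to 1.42) and 2.22 (1.69 to 2.75). These 2 were higher in PERK-KO with limits apart. Neighbours on the posterior HOXC arm thus differed in opposite directions. HOXC11 overlaps the row of HOTAIR and HOXC13 that of HOXC-AS5, both antisense, and the counting is not stated to use strand.

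In the HOXD cluster (chr2:176957532-177055635, plus strand) 7 of 9 genes were expressed, and 5 of the 7 were higher in PERK-KO with limits apart. Over all expressed rows 26.1% were. HOXD3 was at 2.68 (2.18 to 3.18) FPKM in WT and 3.86 (3.22 to 4.51) in PERK-KO. HOXD4 was at 9.06 (7.76 to 10.3) and 10.9 (9.41 to 12.5), and HOXD8 at 8.74 (7.76 to 9.72) and 6.53 (5.70 to 7.37). HOXD3 was the higher and HOXD8 the lower in PERK-KO beyond their limits, while those of HOXD4 overlap.

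The posterior HOXD genes pattern limbs, genitals and hindgut, and all 4 expressed ones were higher in PERK-KO with limits apart. HOXD13 (chr2:176957532-176960666), the last gene of the cluster and a gene of digit formation, was at 12.4 (11.3 to 13.5) FPKM in WT and 27 (25.3 to 28.7) in PERK-KO, 2.18-fold higher with a log2 fold change of 1.12 (0.97 to 1.28). HOXD11, a partner of HOXA11 in kidney and forearm, was at 20.1 (18.3 to 21.9) and 26.0 (23.8 to 28.2). HOXD10 was at 7.48 (6.50 to 8.46) and 10.8 (9.56 to 12), and HOXD9 at 6.27 (5.40 to 7.14) and 9.32 (8.19 to 10.5). HOXD13 was the only 1 of these 4 past the threshold, and HOXD9, with a log2 fold change of 0.57, lay just under it.

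Summed over each cluster, the HOX total was 280 FPKM in WT and 308 in PERK-KO. HOXA made up 17.3% of it in WT and 21.4% in PERK-KO, HOXB 36.2% and 29.0%, HOXC 22.6% and 18.8%, and HOXD 23.9% and 30.9%. HOXB held the largest share in WT and HOXD in PERK-KO. The median log2 fold change was 0.39 in HOXA, -0.17 in HOXB, 0.06 in HOXC and 0.53 in HOXD.

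By position, the median of the central genes was below 0 and those of both ends above it, in a split into groups 1 to 3, 4 to 8 and 9 to 13 that was chosen after the values were seen. The 5 expressed anterior genes all had the higher value in PERK-KO, with a median log2 fold change of 0.53. The 15 central genes had a median of -0.17, and 1 was higher and 3 were lower beyond their limits. The 14 expressed posterior genes had a median of 0.41, and 9 were higher and 2 lower beyond their limits. Over all expressed rows 26.1% were higher and 18.7% lower beyond their limits, so the counts of lower genes in both sets stood near the share of all rows. The central genes made up 44.6% of the HOX total in WT and 34.2% in PERK-KO, and the posterior genes 46.0% and 54.8%. HOXB7 carried most of the difference in the central sum. That sum was 125 FPKM in WT and 105 in PERK-KO, and without HOXB7 it was 89.0 and 85.9. The central share was still lower in PERK-KO without HOXB7, at 36.4% in WT and 29.8% in PERK-KO of a HOX total that also leaves it out. Across clusters, all 3 genes of each of the paralog groups 3, 10 and 11 were higher in PERK-KO with limits apart, and every gene of groups 7 and 8 had the lower value there, with limits apart for HOXB7, HOXC8 and HOXD8. For the 8 expressed posterior genes of HOXA and HOXD the median was 0.55, and for the 6 of HOXB and HOXC it was 0.06. No test of these differences between positions was possible with 1 library a line.

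**Figure D4:**
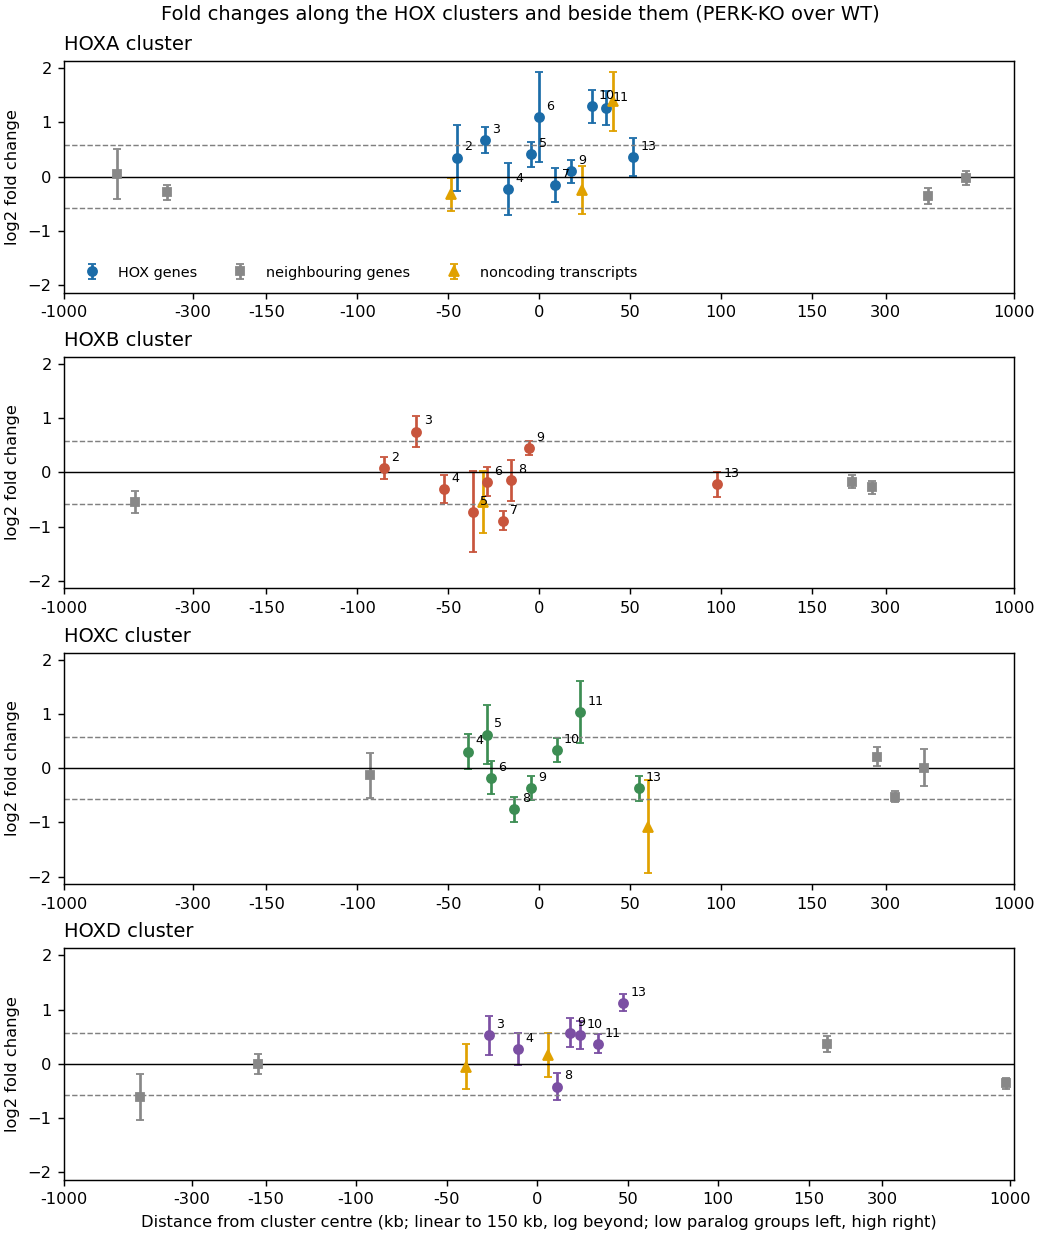
Log2 fold change (PERK-KO over WT) of HOX genes, cluster noncoding transcripts and flanking genes against distance from the centre of each cluster in kb, linear to 150 kb and on a log scale beyond, with low paralog groups to the left. Of the 15 central HOX genes 10 lie below 0 and 5 above it, HOXA6 (1.10) the highest, and the posterior HOXA and HOXD genes lie above it. Of the 15 expressed flanking genes 11 lie below 0, down to -0.61 (LOC375295), and 4 above it.

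Genes outside the clusters were compared as flanks. Of the 24 rows made up of the 3 nearest named genes on each side, 15 were expressed, with a median log2 fold change of -0.17. Past the threshold none was higher and 1 (6.67%), LOC375295, was lower, against 10.5% and 7.83% of all expressed rows. Beyond their limits 1 was higher and 7 were lower, against 26.1% and 18.7% of all expressed rows. Beside HOXD, ATP5G3 was at 98 FPKM in WT and 76.3 in PERK-KO, KIAA1715 at 6.47 and 8.39, and MTX2 at 26 and 25.9. Beside HOXA, SKAP2 was at 14.4 and 11.8, HIBADH at 24.6 and 19.2, and TAX1BP1 at 29.2 and 28.7. Beside HOXC, ATP5G2 was at 832 and 578 and CALCOCO1 at 11.8 and 13.7, and beside HOXB, SNX11 was at 15.3 and 10.5. After the length subtraction the log2 fold changes of ATP5G2 and SNX11 were -0.05 and -0.59. EVX1 and EVX2, homeobox genes joined to the posterior ends of HOXA and HOXD, were at 0 and at 0.07 FPKM or less.

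Noncoding transcripts of the clusters had 11 rows, 7 of them expressed. HOXA11-AS, transcribed opposite HOXA11, was at 1.51 (1.03 to 1.98) FPKM in WT and 3.95 (3.13 to 4.76) in PERK-KO, 2.62-fold higher, beside the 2.41-fold of HOXA11. HOTAIR, which lies in HOXC and is known for binding Polycomb proteins, was at 0.344 (0.149 to 0.539) and 0.966 (0.631 to 1.30), higher beyond its limits and below 1 FPKM in both. HOTAIRM1, at the anterior end of HOXA, was at 15.0 and 11.9 FPKM, and HOXB-AS3, within the central HOXB genes, at 11.8 and 8.02, both with overlapping limits. HOTTIP, at the posterior end of HOXA, was near 0, at 0.0139 and 0.0159. Without strand information, fragments of a gene and of its antisense partner cannot be told apart.

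The clusters also hold microRNA genes, which a poly(A) library does not measure well. The mature sequences below, from RefSeq on GRCh38.p14, are printed because miR-196 is known to repress HOX messages of its own clusters. Capitals mark the seed, bases 2 to 8, which miR-196a and miR-196b share. miR-196b lies in HOXA at chr7:27169528-27169549 (minus strand), miR-196a in HOXC at chr12:53991762-53991783 (plus) and in HOXB at chr17:48632532-48632553 (minus), and miR-10a in HOXB at chr17:48579904-48579926 (minus).
hsa-miR-196b-5p: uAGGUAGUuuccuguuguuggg
hsa-miR-196a-5p: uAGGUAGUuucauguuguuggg
hsa-miR-10a-5p: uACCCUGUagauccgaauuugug

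The MIR196B row was at 285 FPKM (54.7 to 516) in WT and 326 (62.5 to 589) in PERK-KO, wide limits that come from a few fragments on a very short transcript, and the other 5 microRNA rows were listed at 0. The letters ACTACCT, which pair with the miR-196 seed, were in the GENCODE 3′ UTR of 8 of 39 HOX genes (20.5%) and of 7.12% of all 18439 genes with such a UTR. The HOX genes were HOXA5, HOXA7, HOXA9, HOXB1, HOXB6, HOXB7, HOXB13 and HOXC8, with 4 copies in HOXA7 and 3 in HOXC8. The 7 expressed ones had a median log2 fold change of -0.17, and the 27 expressed HOX genes without the letters had 0.36. Over all expressed genes the medians were 0.17 with the letters and 0.04 without. After the length subtraction these all-gene medians were -0.02 and 0, and those of the HOX genes were -0.07 with the letters and 0.48 without. HOXB7 and HOXC8, the genes that were lower past the threshold with limits apart, both hold them, and 5 of the 8 are genes of groups 4 to 8, so position in the cluster and the letters cannot be told apart here. The letters ACAGGGT, which pair with the miR-10 seed, were in 3 HOX genes, among them HOXA3 and HOXB3, and in 12.9% of all. The 2 expressed ones had a median log2 fold change of 0.71, and the 32 expressed HOX genes without these letters had 0.29.

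HOXB8 does not hold the seed match, and carries the long site for which miR-196 is best known. The site lies in its 3′ UTR on hg19 at chr17:46690132-46690153, minus strand, at bases 411 to 432 of the UTR. Capitals mark the 21 of 22 bases that pair with miR-196a, by strict base pairing.
HOXB8 site: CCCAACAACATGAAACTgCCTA

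HOXB8 was on in both lines, at the 4.16 and 3.75 FPKM given above, with overlapping limits.

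Cofactors and regulators of the clusters were described from fixed lists. The TALE homeodomain proteins bind DNA together with HOX proteins, and all 9 of their genes were expressed. PBX2 was at 32.9 (31.4 to 34.4) FPKM in WT and 39.3 (37.6 to 41.1) in PERK-KO, and MEIS1 at 3.69 and 4.23. Past the threshold with limits apart, PKNOX2 was higher, at 0.393 and 1.60 FPKM, and MEIS3 was lower, at 25.2 and 12.1. Each is 1 of 9 genes (11.1%), against 8.21% of all expressed rows higher and 5.63% lower in the same way. PKNOX2 entered the expressed set through PERK-KO alone.

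The 30 Polycomb genes, which keep silent HOX genes off, were all expressed, with a median log2 fold change of 0.13, or 0.03 after the length subtraction. EZH2, the H3K27 methyltransferase, was at 21.5 (20.1 to 22.9) FPKM in WT and 26.4 (24.7 to 28.0) in PERK-KO. Past the threshold, 3 (10%) were higher and none lower, so the share higher was near the 10.5% of all expressed rows. These were BMI1 at 11.9 and 19.8, RNF2 at 8.75 and 13.4, and PHC1 at 8.22 and 14.1, and after the length subtraction RNF2 (log2 fold change 0.52) was no longer past it.

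Trithorax genes and H3K27 demethylases, which keep active HOX genes on, were described in a list of 19 genes. It also holds DOT1L, MLLT1, MLLT3, AFF1 and AFF4, which are neither. Of the 19 genes, 7 (36.8%) were higher and 1 (5.26%) was lower past the threshold, against 10.5% and 7.83% of all expressed rows. The median log2 fold change was 0.49. KMT2A, listed as MLL, was at 3.76 (3.51 to 4.02) FPKM in WT and 7.41 (7.02 to 7.81) in PERK-KO. The H3K79 methyltransferase gene DOT1L was at 12.8 and 22.4 FPKM and ASH1L at 3.30 and 6.25, and the small subunit gene DPY30 was the lower one, at 100 and 63.6. The transcripts of this list are long, with a median of 6728 bases, and after the length subtraction its median was 0.26. Past the same fold there, 3 were higher (KMT2A, MLL2 and AFF1) and none lower, with DOT1L at 0.50, ASH1L at 0.54 and DPY30 at -0.20.

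Genes known to act upstream of HOX clusters had 17 rows, 11 of them expressed. Past the threshold 4 (36.4%, against 10.5% of all expressed rows) were higher in PERK-KO and none lower. All 4 are retinoid genes, as are most rows of this list. RARB, at 0.951 and 2.31 FPKM, and CYP26A1, at 0.242 and 1.32, entered the expressed set through PERK-KO alone. RARA was at 6.49 and 9.88 and ALDH1A2 at 1.53 and 2.41, and neither stayed past the threshold after the length subtraction, at log2 fold changes of 0.53 and 0.56. The receptor gene RARG had the lower value in PERK-KO, at 4.55 (3.94 to 5.17) and 3.72 (3.14 to 4.30), with overlapping limits. CDX2, a caudal activator of central HOX genes, was at 6.08 (5.33 to 6.84) and 7.53 (6.63 to 8.42), with overlapping limits, and GDF11, a trunk-to-tail signal, was at 9.57 and 7.50, with a log2 fold change of -0.35, or -0.71 after the length subtraction. None of these values was tested for a part in the HOX differences.

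**Figure D5:**
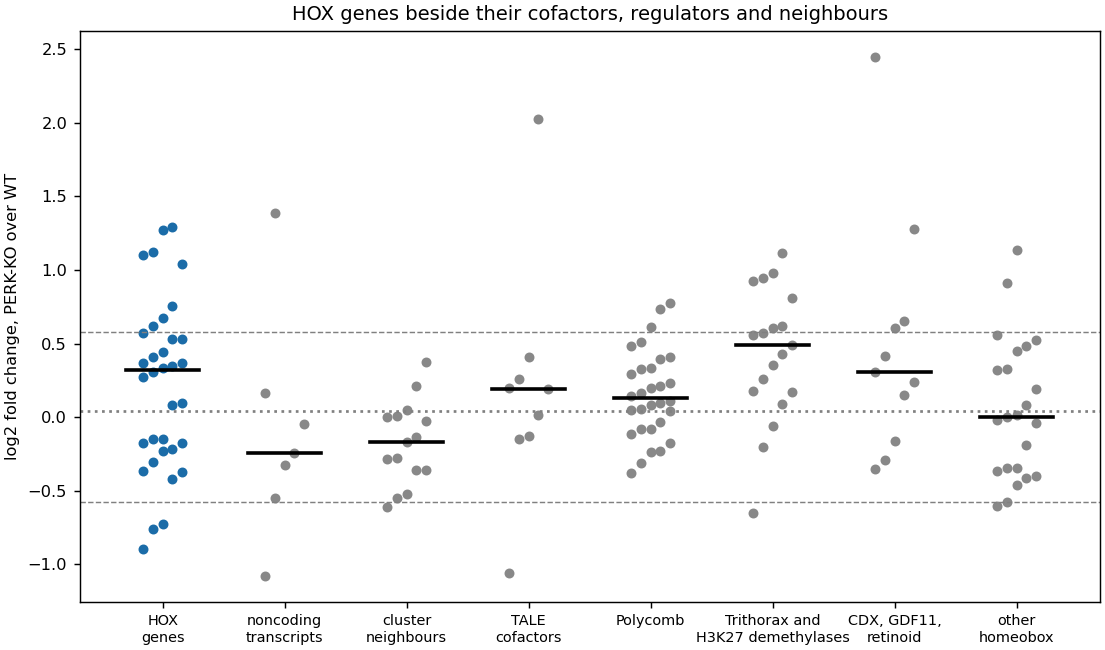
Log2 fold change (PERK-KO over WT) of expressed genes in the HOX clusters and in the companion lists, 1 point a gene. HOX genes spread from -0.89 (HOXB7) to 1.29 (HOXA10), and the medians are 0.32 for HOX genes, 0.49 for the Trithorax and demethylase list, 0.13 for Polycomb and -0.17 for cluster neighbours.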

How the data were processed

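Poly(A) RNA of WT and PERK-KO HEK293 cells was sequenced with 1 library a line. Per the study's methods and the submitters' processing notes, the authors aligned reads to hg19 with TopHat2 2.0.13 and computed FPKM with Cufflinks 2.2.1. They deposited FPKM and its lower and upper confidence limits for each gene. No read counts are in the tables used here, and no count model was run.

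Fold changes were PERK-KO over WT without a pseudocount, for rows whose FPKM reached 1 in either line. The fragments behind a value were taken as the square of 2 times FPKM over the distance to the upper limit. The step of 1 fragment was read from 1282 genes whose counts came out whole within 0.05, and its ratio gave the relative depth. Transcript lengths came from GENCODE canonical transcripts on GRCh37, for 91.8% of expressed rows and all 39 HOX genes. Promoters and mature microRNAs came from RefSeq tables on GRCh38.p14, and 3′ UTRs from GENCODE. Motifs were searched as exact letters.

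The HOX members and all gene lists were chosen with earlier results of these data known. The rule named every expressed HOX gene, HOX genes whose on or off state differed, and, in each other list, genes past the fold threshold with limits apart, some defining members and up to 4 of the most abundant. Some genes that meet it, and 1 HOX gene, enter the counts and are not reported here by value or in the plots of levels. Alternatives were other thresholds, filters, pseudocounts, scalings and a length correction. With 1 library a line no p-value was computed. Scripts were tested on simulated data. Python 3.11.15, numpy 2.4.6, pandas 2.3.3, scipy 1.17.1 and matplotlib 3.10.9 were used.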

Additional observations from a re-analysis of the deposited data

How the results depend on the processing

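The 33 HOX genes on in both lines became 34 at an FPKM of at least 0.5, 29 at 2 and 36 when only a lower confidence limit above 0 was asked for. Of the 8 HOX genes past the fold threshold higher in PERK-KO, 4 of 24 were left with an FPKM filter of 5 and 5 with a pseudocount of 1. These compare with 8.75% and 6.69% of all genes under the same settings. At 2-fold, 5 were higher and 0 lower (3.28% and 2.08% of all genes). The length subtraction gave 11 higher and 3 lower (6.4% and 5.45% of all), and no filter gave 10 and 3 (14% and 10.9% of all). Scaling to the median or to the 75th percentile, shifts of 0.04 and 0.03 on the log2 scale, gave 8 and 3. The median log2 fold change of HOX genes lay between 0.18 and 0.41 over all alternatives run. No single expressed HOX gene changed the sign of its log2 fold change, and only HOXB7 (-0.70) and HOXD4 (0.58) moved, under the length subtraction, by more than their counting error. No paired analysis was possible because each line has 1 library, and for the same reason no library could be left out. Depth is known only as a ratio, and the limits cover counting error only.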

Other observations

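Homeobox genes outside the HOX clusters were described from a list of the NK, ParaHox and EVX type. Of 31 such genes 23 were expressed, with a median log2 fold change of -0.00, and 2 (8.70%) were past the fold threshold higher in PERK-KO and 2 (8.70%) past it lower, against 10.5% and 7.83% of all expressed rows. NKX6-1, a gene of ventral spinal cord and pancreas, was higher, at 5.85 (4.73 to 6.98) FPKM in WT and 12.9 (11.1 to 14.7) in PERK-KO. TLX3, a gene of sensory neurons, was lower, at 8.86 and 5.83. The most abundant were MSX1 at 45.9 and 34.4 FPKM, NKX2-5 at 31.7 and 33.6, MSX2 at 22.3 and 17.6, and DLX2 at 20.1 and 25.1. With 1 library a line, whether this list and the HOX genes differ was not tested.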
